A study of Mus musculus with 6 samples.

Results

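The Hoxc and Hoxd clusters are the subject here: every CpG position, meaning a cytosine given by its base and strand, on mouse chromosome 15 from base 102916000 to 103042000 and on chromosome 2 from base 74663000 to 74771000 (mm10) that was read in all 6 libraries. Position alone chose them, not their methylation. There were 906 such positions of 552338 shared by all libraries, 337 in the Hoxc stretch (162 on the forward and 175 on the reverse strand) and 569 in the Hoxd stretch (298 and 271). They were also described in windows of 1 kb. Of 126 Hoxc windows 40 held a shared position and 23 held at least 5, and of 108 Hoxd windows 34 and 24 did. The 47 windows with at least 5 positions held 294 and 546 positions.

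DNA methylation was read by enhanced reduced representation bisulfite sequencing, in which CpG-rich restriction fragments are sequenced after bisulfite has turned unmethylated cytosine into a base read as T. The level of a position is the percent of its reads that kept C. All mice were male C57BL/6 animals aged 7-10 months that carried VavCre, a Cre recombinase driven by the Vav promoter, which is active in blood cells. Control littermates were IDH1+/+ VavCre+ and the knock-in mice, called KI, were IDH1+/lsl VavCre+, so the allele is switched on by Cre in blood cells and is present beside 1 normal allele.

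From bone marrow pooled from 6 mice per group, long-term haematopoietic stem cells (LT-HSC, Lin- Sca+ Kit+ CD150+ CD48-), short-term haematopoietic stem cells (ST-HSC, Lin- Sca+ Kit+ CD150+ CD48+) and multipotent progenitors (MPP, Lin- Sca+ Kit+ CD150-) were sorted. Each of the 6 combinations was 1 library, so no group has a replicate and each difference given is 1 library minus another. Values given in threes follow the order LT-HSC, ST-HSC, MPP. Neither RNA nor protein was measured, so the sort markers and the Idh1 allele could not be checked in these data.

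Hox genes encode homeodomain transcription factors that give cells their position along the body axis, and in vertebrates they lie in clusters whose gene order follows the order of expression, with the low-numbered genes anterior and the high-numbered genes posterior. In blood stem cells the Hoxa and Hoxb genes are the best known, while most Hoxc and Hoxd genes are known for their work in limbs, skin, vertebrae and spinal cord. Polycomb complexes keep silent Hox clusters in check through histone marks, and CpG-rich stretches under Polycomb usually carry little DNA methylation. IDH1 makes 2-oxoglutarate, which the TET enzymes need to oxidise methylated cytosine, and mutant IDH1 makes 2-hydroxyglutarate, which inhibits them.

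The promoters below show what the positions look like in sequence. Of 20 promoters listed for genes in the stretches, each 300 bases long from 250 bases before to 50 bases after the start of a transcript, 9 held shared positions. A median of 12.5 CpGs lay in the 20 promoters, against 7 over the 32851 promoters of the mouse table. CCGG, which reads the same on both strands and is the site of MspI, the enzyme usual in this assay, was in 70% of the 20 and in 52.8% of all. Capitals mark the bases measured in all 6 libraries: C is a cytosine of the printed strand and G faces a measured cytosine of the other strand. All 4 are on the forward strand of chromosome 2, from RefSeq for GRCm38.p6, the build called mm10. Hoxd12 is shown because its window had the widest difference between LT-HSC and MPP among the Hoxd windows, Hoxd11 because 22 of its 25 CpGs were measured, and Hoxd9 and Hoxd3 because every KI library stood above every Control library there.
Hoxd12, chr2:74674763-74675062: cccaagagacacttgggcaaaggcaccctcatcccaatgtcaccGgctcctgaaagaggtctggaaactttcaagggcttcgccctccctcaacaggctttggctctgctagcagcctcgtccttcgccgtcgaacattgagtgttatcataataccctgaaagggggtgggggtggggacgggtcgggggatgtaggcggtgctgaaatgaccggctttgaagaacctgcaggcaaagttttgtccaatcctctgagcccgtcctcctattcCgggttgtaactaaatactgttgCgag
Hoxd11, chr2:74682073-74682372: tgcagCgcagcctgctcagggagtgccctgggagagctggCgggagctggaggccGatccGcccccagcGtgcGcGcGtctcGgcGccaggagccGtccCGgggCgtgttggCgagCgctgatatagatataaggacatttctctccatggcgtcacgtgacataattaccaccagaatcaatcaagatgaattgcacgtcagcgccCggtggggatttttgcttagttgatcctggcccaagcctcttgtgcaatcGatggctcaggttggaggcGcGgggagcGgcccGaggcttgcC
Hoxd9, chr2:74697513-74697812: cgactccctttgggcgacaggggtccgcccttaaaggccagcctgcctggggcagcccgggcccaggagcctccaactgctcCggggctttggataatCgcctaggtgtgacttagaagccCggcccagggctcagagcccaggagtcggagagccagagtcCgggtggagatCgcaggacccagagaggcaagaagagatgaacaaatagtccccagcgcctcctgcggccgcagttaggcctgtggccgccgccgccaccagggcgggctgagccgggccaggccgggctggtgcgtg
Hoxd3, chr2:74711743-74712042: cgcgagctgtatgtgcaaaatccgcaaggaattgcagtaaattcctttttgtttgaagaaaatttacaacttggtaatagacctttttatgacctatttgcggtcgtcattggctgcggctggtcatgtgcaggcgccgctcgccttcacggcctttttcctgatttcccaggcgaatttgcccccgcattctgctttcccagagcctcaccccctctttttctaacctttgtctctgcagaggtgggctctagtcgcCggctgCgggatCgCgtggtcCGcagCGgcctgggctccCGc
The capitals stand in short runs. In Hoxd3 the 10 measured positions fill the last bases of the promoter and the rest of its 20 CpGs were not read in all libraries. In Hoxd12 3 of 13 CpGs were read and in Hoxd9 5 of 20.

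Each library held between 38284759 and 53884467 reads, summed over positions, with a median of 27 to 45 reads per position and no position under 10. At the Hoxc positions the median was 33 to 56 reads and at the Hoxd positions 32 to 61. A median of 33 reads resolves a single position to steps of several points, and reads copied from 1 molecule would make the precision lower still. The deposited lane numbers differed between genotypes (lanes 6, 6 and 5 for Control, and 7, 3 and 4 for KI), and lane and genotype therefore cannot be told apart. LT-HSC and MPP also had different lanes within each genotype (6 and 5, 7 and 4). Lane and cell type cannot be told apart in that comparison either. The strands of a CpG gave a measure of the noise: at 124 CpGs of the 2 clusters read on both strands, the strands differed by 10 points or more at 35.5, 28.2 and 30.6% of CpGs in Control. In KI this was 17.7, 16.1 and 19.4%. The Control libraries were thus noisier here in every cell type, as they were over the 78150 such CpGs of the genome (15.4, 13.5 and 15.5% against 11.7, 12.7 and 12.8%), and the part of this noise in the results below was not tested.

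Both clusters carried little methylation in all 6 libraries. The mean level of the Hoxc positions was 10.3, 9.23 and 9.72% in Control against 10.7, 11.4 and 12.99% in KI. The Hoxd positions stood at 7.91, 7.28 and 8.69% in Control against 8.57, 9.85 and 10.8% in KI. Over all shared positions the mean lay between 21.5 and 23.3%. The KI MPP library was the highest for both clusters and the Control ST-HSC library the lowest.

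Few positions were highly methylated. By the mean over 6 libraries, 586 of the 906 positions (64.7%) were under 10%, 204 at 10 to 20%, 107 at 20 to 50% and 9 over 50%. Of all 552338 positions 66.5% were under 10%, 49008 at 10 to 20%, 25262 at 20 to 50% and 110616 over 50%. The share under 10% was thus near that of the genome. Among positions with a mean under 20%, the 280 Hoxc positions averaged 6.51% and the 510 Hoxd positions 6.27%, against 3.04% over the 416460 such positions of the genome. The highest position, at chr2 base 74701026 between Hoxd9 and Hoxd8, had a mean of 81.1% and ran from 62.5 to 95.6% on 24 to 47 reads. Of the other 8 positions over 50%, 5 ranged over more than 50 points between libraries. An example lies in Hoxd3 at base 74746379, with 94.1, 13.2 and 100% in Control on 34, 38 and 20 reads, and 43.3, 29.7 and 37.3% in KI.

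**Figure D1:**
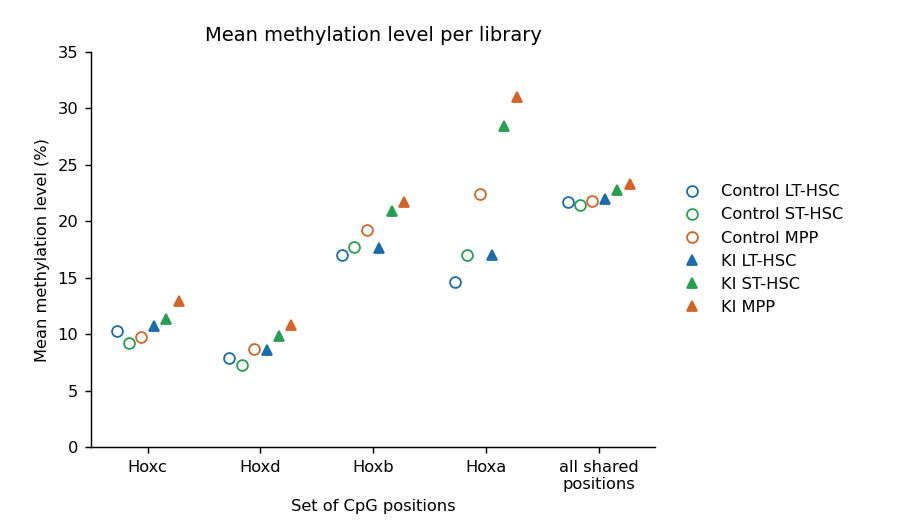
Mean methylation level in percent (vertical axis) of the CpG positions of each Hox cluster and of all shared positions (horizontal axis), 1 point per library, with colour for cell type and marker for genotype. Every Hoxc and Hoxd point lies below the Hoxb and Hoxa points of its library, and the Hoxc points lie 1.03 to 2.38 points above the Hoxd points.

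The clusters were also compared within each library. Hoxa and Hoxb were cut from the first to the last Hox gene model, 105514 and 173939 bases with 478 and 402 positions. The Hoxc and Hoxd stretches also reach past their outermost Hox genes. The Hoxc mean was above the Hoxd mean in 6 of 6 libraries, by 1.87 ± 0.512 points (SD, n = 6; exact two-sided sign-flip permutation test p = 0.03125, the smallest that 6 libraries allow, and 0.03125 after Benjamini-Hochberg adjustment over 5 such comparisons). The size of this gap depended on how positions were averaged: it was 2.66 points when reads were pooled and 0.9003 points as a mean over windows, with Hoxc higher in 6 of 6 libraries each time. Over positions with a mean under 20% it was 0.241 ± 0.248 points, with Hoxc higher in 5 of 6 libraries (exact sign-flip permutation p = 0.0625, adjusted 0.0781) and Hoxd just above Hoxc in Control ST-HSC. Hoxc lay 11.05 points below Hoxa and 8.34 below Hoxb on average, and Hoxd 12.9 and 10.2 points below them, lower in 6 of 6 libraries in each case with the same p. With pooled reads these gaps were 6.22 and 3.54 points for Hoxc and 8.89 and 6.20 for Hoxd, again lower in 6 of 6 libraries. Over positions with a mean under 20% the order of the means was the opposite, with 6.51% for Hoxc and 6.27% for Hoxd against 5.05% for Hoxa and 4.64% for Hoxb. There Hoxc and Hoxd were each above Hoxa in 5 of 6 libraries and above Hoxb in 6 of 6, and the adjusted p ran from 0.0781 to 0.0938. The 6 libraries share cell types and genotypes, so they are not 6 independent draws of one condition.

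Along the clusters most windows were low with a few taller ones. Mean levels over the 6 libraries ran from 2.89 to 28.3% over the Hoxc windows (median 7.90%) and from 2.47 to 34.3% over the Hoxd windows (median 8.09%), where the median over all 25123 windows of the genome was 4.57%. The tallest window, chr2:74701001-74702000 between Hoxd9 and Hoxd8, stood at 41.8, 29.9 and 29.6% in Control against 34.0, 30.3 and 40.1% in KI over 6 positions. The next, chr15:103011001-103012000 at the far end of the Hoxc6 gene model, stood at 40.9, 28.9 and 21.1% in Control against 16.9, 33.0 and 29.1% in KI over 10 positions. Another inside Hoxc6, chr15:103005001-103006000, stood at 14.4, 22.4 and 12.8% in Control against 18.7, 24.1 and 16.7% in KI. In none of these 3 windows did the genotypes separate. The windows richest in positions were low: Hoxd11 (chr2:74682001-74683000, 49 positions) averaged 7.53% over the libraries, Hoxd9 (chr2:74698001-74699000, 45 positions) 4.72% and Hoxd1 (chr2:74763001-74764000, 42 positions) 8.65%.

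Positions inside and outside genes differed in opposite ways in the 2 clusters. In the Hoxc stretch 249 of 337 positions lay inside a Hox gene and their mean ran from 9.84 to 13.9% over the libraries, against 7.15 to 10.1% for the 80 positions outside every gene. In the Hoxd stretch 487 of 569 lay inside a Hox gene at 6.66 to 10.6%, and the 42 positions outside every gene stood at 12.2 to 16.2%. By unweighted means the Hoxc6 and Hoxc4 gene models and the gap between Hoxd9 and Hoxd8 hold the higher parts.

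**Figure D2:**
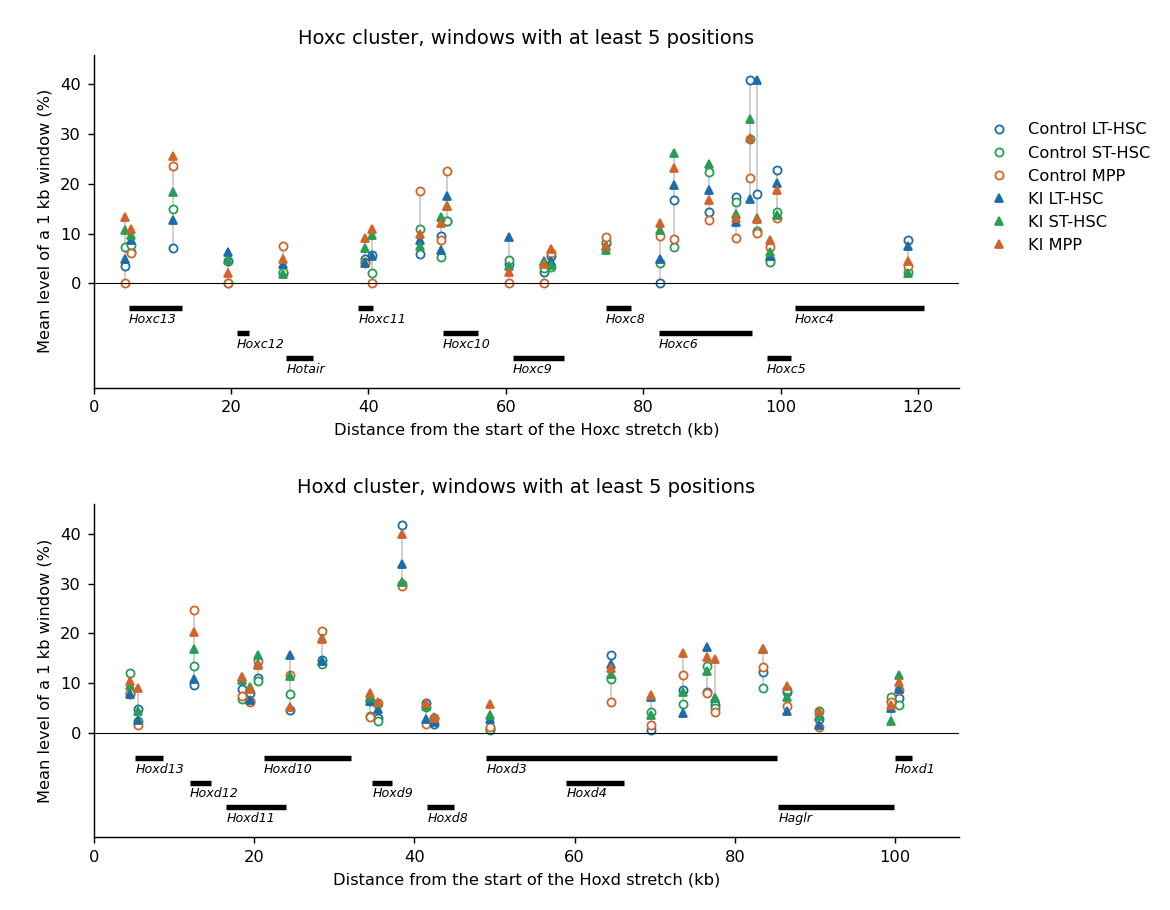
Mean methylation level in percent of each 1 kb window with at least 5 shared positions (vertical axis) against distance in kb from the start of the stretch (horizontal axis), for Hoxc above and Hoxd below, 1 marker per library (open circles Control, filled triangles KI), a grey line over the range of the 6 libraries and gene extents as bars below 0. The tall windows at the far end of Hoxc6 and between Hoxd9 and Hoxd8 reach 40.9 and 41.8% in single libraries, and most windows stay under 20% in all 6.

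The first comparison asks how the Idh1 allele goes with methylation of the clusters. In every cell type both clusters were higher in KI than in Control, by a few points at most. For Hoxc the difference was 0.425, 2.12 and 3.27 points, a mean of 1.94 ± 1.43 (SD, n = 3 cell types). For Hoxd it was 0.655, 2.57 and 2.10 points, a mean of 1.77 ± 0.997. An exact two-sided sign-flip permutation test over the 3 cell types gave p = 0.25 for each cluster, the smallest that 3 pairs allow, so this design cannot pass a threshold of 0.05.

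The same differences in the genome set the scale. All shared positions were higher in KI by 0.201, 1.27 and 1.51 points (mean 0.991), Hoxb by a mean of 2.08 points and Hoxa by 7.49. Among positions with a mean under 20%, the difference was 1.24, 2.02 and 3.66 points for Hoxc, 0.828, 1.995 and 3.36 for Hoxd, and 0.0268, 0.739 and 1.54 over the genome. Pooled reads gave the Hoxc difference another sign in LT-HSC, from 11.4% in Control to 10.5% in KI, while ST-HSC went from 11.7 to 12.4% and MPP from 11.3 to 14.2%. The pooled Hoxd value was higher in KI in each cell type (7.95 to 8.31%, 8.69 to 10.5% and 8.73 to 11.2%).

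The genotypes also differed in the share of positions without a methylated read. In Control 52.2, 44.2 and 64.1% of Hoxc positions were at 0, and in KI 31.8, 30.3 and 24.0%. For Hoxd the shares were 56.6, 51.0 and 66.3% in Control against 35.7, 35.1 and 27.8% in KI. The genotypes did not overlap in either cluster, but this was not particular to Hoxc and Hoxd. Over all shared positions the shares were 60.0, 56.2 and 65.0% against 52.3, 51.1 and 46.5%, again without overlap but with a smaller gap. Hoxa, at 49.6, 44.8 and 59.4% against 34.5, 33.3 and 28.9%, did not overlap either. Nor did Hoxb, at 53.7, 49.5 and 58.7% against 44.8, 39.3 and 36.8%. Of the 906 positions 139 (15.3%) were higher in KI in every cell type and 24 (2.65%) lower, against 6.41 and 2.17% of all shared positions. A position at 0 in a KI library cannot be higher in KI there. As given above, such positions were a smaller share of the clusters than of the genome, and the part of this in the counts was not tested. In LT-HSC and MPP the KI library also had more reads per position than the Control library here, a median of 56 against 46 and of 47 against 38 at Hoxc and 61 against 49 and 53 against 43 at Hoxd, and in ST-HSC the depths were alike (33 and 33, 32 and 34). The part of depth in these shares was not tested.

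By window, small differences toward KI were more frequent than in the genome and large ones were not seen in every cell type. Of the 47 windows 17 (36.2%) were higher in KI in every cell type by any amount, where 22.1% of all 25123 windows were, and 2 were lower (background 6.36%). By cluster this was 10 of 23 Hoxc and 7 of 24 Hoxd windows. Among the 45 windows with a mean under 20% there were 17, against 23.1% of all such windows. The median level of these 45 was 7.53%, against 3.26% over all such windows, and the part of level in these counts was not tested. The median of the mean difference was 2.19 points over the 47 windows and 0.582 points over all windows. At least 10 points higher in KI in every cell type were 0 of 47 windows (background 0.896%), and 0 were lower by as much (background 0.0517%). Every KI library was above every Control library in 9 windows (background 11.1%) and below in 2 (background 2.26%). With pooled reads 16 of 47 windows were higher in KI in every cell type, against 21.9% of all windows, and 1 was lower, against 6.38%. Of the 17 windows 14 were among these 16. With pooled reads every KI library was above every Control library in 7 of 47 windows and below in 0. The share of all windows was not computed for that pooled count. In single cell types 2, 1 and 5 windows were at least 10 points higher (background 3.76, 5.07 and 5.45%), and 1, 0 and 0 were lower by as much (background 1.63, 0.665 and 1.74%).

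No window of the clusters passed the test across the genome. With limma on log2 ratios (methylated over unmethylated reads), cell type as a block and 2 residual degrees of freedom, 0 of 47 windows had an adjusted p under 0.05 (background 0.00796%, 2 of 25123 windows and both lower in KI), and the lowest adjusted p among the 47 was 0.599. At an unadjusted p under 0.05, 7 windows were higher in KI (background 6.01%) and 0 lower (background 0.975%). The edgeR quasi-likelihood test on the read counts called 0 of 47 as well, where 2 of 25123 windows were called, both lower in KI. At an unadjusted p under 0.05 it had 2 of 47 higher, where 1037 of 25123 were. It had 0 of 47 lower, where 159 of 25123 were. The named windows below are therefore descriptions of 6 libraries.

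**Figure D3:**
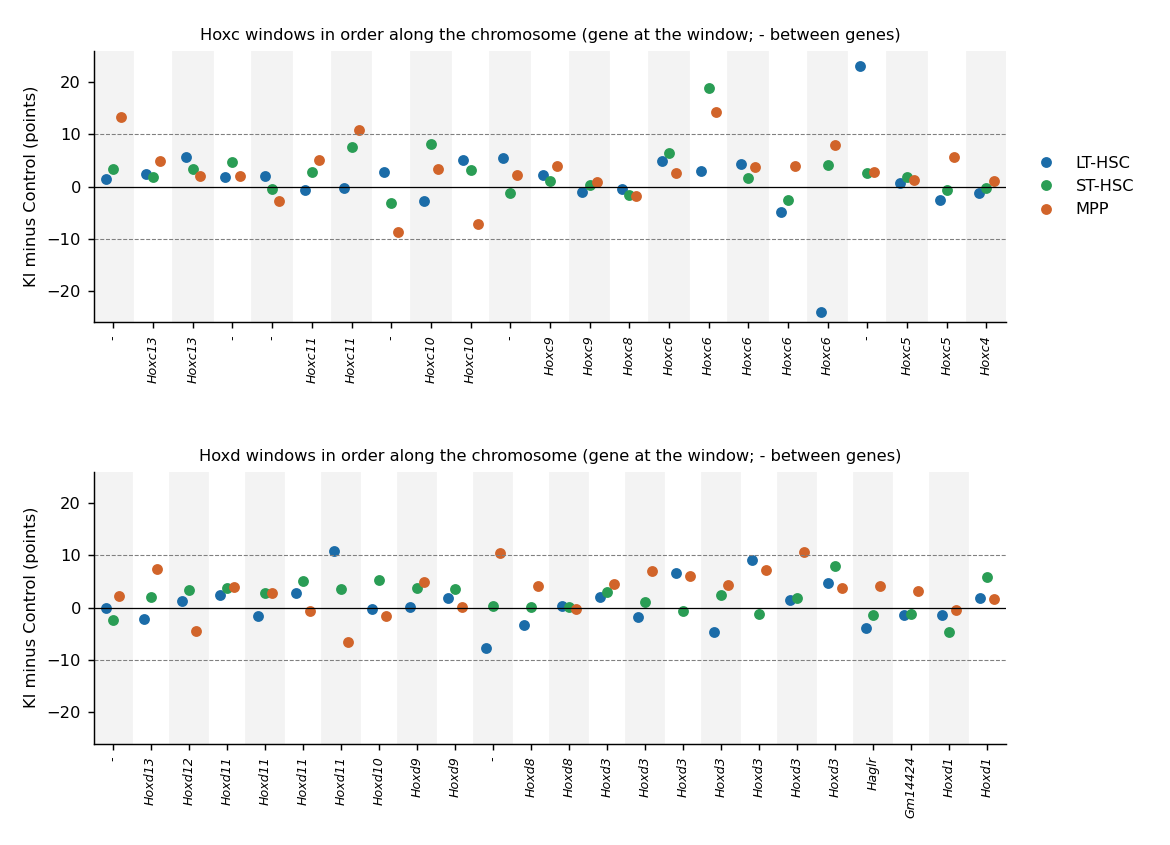
KI minus Control in percentage points (vertical axis) for each 1 kb window in order along the chromosome (horizontal axis, labelled by gene), Hoxc above and Hoxd below, with 1 point per cell type. Most points lie within 10 points of 0, and the farthest are -24.0 (LT-HSC, far end of Hoxc6) and 23.1 (LT-HSC, just past Hoxc6). The window inside Hoxc6 has 2 far points, 18.9 in ST-HSC and 14.3 in MPP.

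The widest difference toward KI was inside Hoxc6, a gene of the trunk and limb-bud region. In chr15:103000001-103001000 the level was 16.8, 7.26 and 8.999% in Control against 19.7, 26.2 and 23.3% in KI over 12 positions. Every KI library was above every Control library, with the gap small in LT-HSC (2.95 points) and wide in ST-HSC (18.9) and MPP (14.3), a mean of 12.1 ± 8.22 points (SD, n = 3). The limma log2 difference was 1.34 (SE 0.46, adjusted p 0.645). It is the 1 window that was at least 10 points higher in KI in every remaining cell type once either LT-HSC library was left out. Its 12 positions lie close together, from base 103000649 to 103000701, and are not 12 separate sites. At base 103000658, for example, Control read 10.0, 0 and 0% and KI 24.2, 34.6 and 24.0%, on 26 to 75 reads.

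Just past Hoxc6 a window of 5 positions shows how 1 library can set a value. In chr15:103012001-103013000 Control stood at 17.9, 10.5 and 10.1% and KI at 41.0, 13.04 and 12.9%. The KI LT-HSC value rests on 73 reads in all, with 100% at bases 103012123 and 103012132 and 0% at base 103012151, each on 10 reads. With pooled reads it was 28.8%, against 18.3% in Control. Without the LT-HSC pair the difference is 2.53 points in ST-HSC and 2.77 in MPP.

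The other windows named for a higher level in KI were in the Hoxd3 gene model and ahead of Hoxc13. Hoxd3, a gene of the neck region, was evenly higher in chr2:74746001-74747000, with 12.1, 9.02 and 13.2% in Control against 16.9, 16.9 and 16.9% in KI over 32 positions, so the genotypes did not overlap (mean 5.47 ± 2.17 points, limma adjusted p 0.714). In chr2:74740001-74741000, also in Hoxd3, Control stood at 5.57, 5.05 and 4.22% and KI at 7.01, 6.93 and 14.9% over 13 positions. There the genotypes did not overlap either, but most of the difference came from MPP. With pooled reads they overlapped and ST-HSC turned, with 9.44% in Control and 7.28% in KI. The 9 positions of chr15:102920001-102921000, ahead of the posterior gene Hoxc13, read 3.38, 7.37 and 0% in Control against 4.90, 10.8 and 13.3% in KI. Here the genotypes overlapped, but with pooled reads they did not (2.30, 5.51 and 0% against 5.95, 10.0 and 13.4%). Much of this window is 1 position, base 102920168, at 17.65, 57.9 and 0% against 25, 64.5 and 75.6% on 17 to 41 reads. Its mean was 40.1%, and no other of the 9 was above 8.82%.

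Only 2 windows were lower in KI in every cell type, and by little. Where the lncRNA Haglr adjoins the start of Hoxd1, chr2:74762001-74763000 went from 6.44, 7.17 and 6.19% in Control to 5.08, 2.43 and 5.68% in KI over 22 positions. The window at Hoxc8, chr15:102990001-102991000, went from 8.03, 8.28 and 9.40% to 7.53, 6.65 and 7.53% over 17 positions. In both the genotypes did not overlap, yet the mean differences were -2.20 and -1.33 points. With pooled reads the genotypes overlapped in both. The Hoxc8 difference changed sign with the coverage, to 0.481 points at positions with at least 20 reads, and with pooled reads LT-HSC was 6.897% in Control and 7.05% in KI. The next window along, inside Hoxd1 (chr2:74763001-74764000), went the other way, from 6.96, 5.62 and 8.57% to 8.86, 11.6 and 10.3%, again with no overlap. Pooled reads kept its direction in every cell type, but the genotypes overlapped.

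At the promoters printed above, differences of the same size appeared. The Hoxd11 promoter, of a gene that shapes forearm and kidney, read 4.14, 5.30 and 4.85% in Control against 7.08, 9.73 and 8.96% in KI over 23 positions. The Hoxd9 promoter read 8.12, 8.82 and 8.62% in Control against 15.2, 12.5 and 13.3% in KI over 5 positions. The Hoxd3 promoter read 0.333, 0 and 0.816% in Control against 2.01, 2.91 and 5.92% in KI over 10 positions. All 3 KI libraries were above all 3 Control libraries at each of these, with pooled reads too. Hoxd9 and Hoxd3 were printed for this reason, and the share of all promoters that separate in this way was not computed. Of all 1 kb windows 11.1% did by unweighted means. A promoter of the gene model Gm38462 (chr2:74712009-74712308), which shares bases with that of Hoxd3, showed no overlap either. At the other promoters of Hoxd genes the genotypes overlapped, as at Hoxd12 (14.8, 6.30 and 22.1% in Control, 10.1, 23.1 and 18.4% in KI, 3 positions) and at Hoxd1 (3.44, 5.96 and 6.81%, and 5.58, 2.13 and 5.25%, 20 positions). The Hoxd13 promoter, of the most posterior gene of the cluster, read 7.07, 2.52 and 0.973% in Control against 1.80, 4.10 and 2.99% in KI over 7 positions, and the Hoxd10 promoter 7.14, 3.60 and 0% and 3.66, 5.45 and 11.01% over 5.

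**Figure D4:**
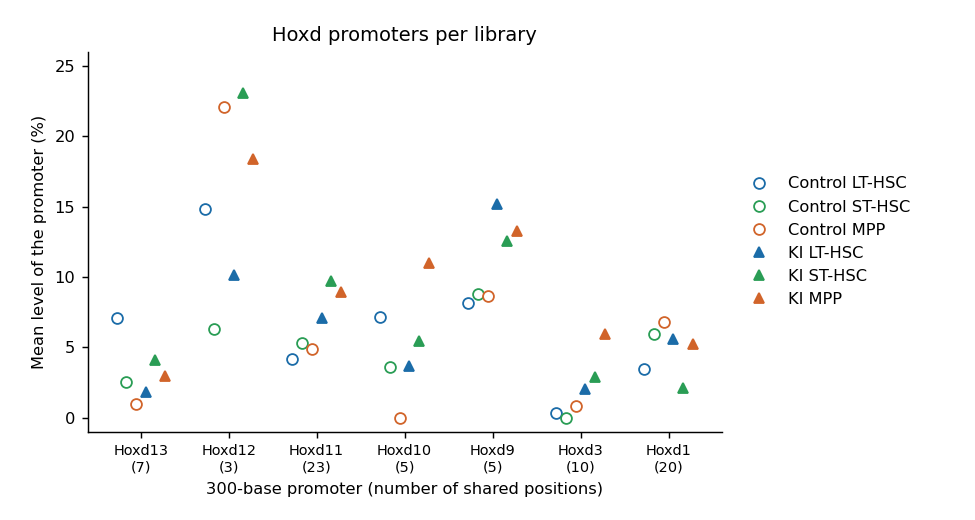
Mean methylation level in percent (vertical axis) of each Hoxd promoter of 300 bases with shared positions (horizontal axis, with the number of positions in parentheses), 1 point per library, with colour for cell type and marker for genotype. At Hoxd11, Hoxd9 and Hoxd3 the KI points lie above the Control points, and at Hoxd12 the libraries spread from 6.30 to 23.1%.

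The second comparison sets the progenitor beside the stem cell, MPP against LT-HSC, within each genotype. The cluster means differed little and not alike. Hoxc was lower in MPP by 0.577 points in Control and higher by 2.27 points in KI. Hoxd was higher in MPP by 0.782 points in Control and by 2.22 in KI. Hoxa was higher by 7.74 and 13.99 points and Hoxb by 2.23 and 4.03, while all shared positions differed by 0.0788 and 1.38 points. Over positions with a mean under 20% the Hoxd difference in Control changed sign, to -0.448 points, and was 2.09 in KI. These differences of cluster means were not tested here.

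By window the share higher in MPP over both clusters was close to that of the genome. Of 47 windows 15 (31.9%) were higher in MPP in both genotypes (background 33.2%) and 9 (19.1%) lower (background 15.2%). The lower windows were 7 of 23 in Hoxc (30.4%) and 2 of 24 in Hoxd (8.33%), so the clusters lay on either side of that background. At least 10 points higher in both genotypes was 1 window (background 1.41%), and 0 were lower by as much (background 0.362%). With limma 0 of 47 windows had an adjusted p under 0.05 (background 0.0%, 0 of 25123 windows), the lowest adjusted p among the 47 was 0.470, and at an unadjusted p under 0.05 there were 3 higher (background 5.36%) and 3 lower (background 2.09%). The edgeR test called 0 of 47 too, as it did 0 of 25123 windows. At an unadjusted p under 0.05 it had 1 of 47 higher, where 1005 of 25123 were, and 0 lower, where 312 were.

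The 1 window past 10 points was inside Hoxc13, a gene that works in hair and nail. In chr15:102927001-102928000 the mean over 9 positions was higher at each step from LT-HSC through ST-HSC to MPP. It read 7.17, 14.98 and 23.6% in Control against 12.7, 18.3 and 25.6% in KI, on 157 to 486 reads. Single positions did not all keep this order, as given below. The limma log2 difference was 1.56 (SE 0.45, adjusted p 0.544). Hoxd12, a posterior limb gene, had the same order in chr2:74675001-74676000, with 9.63, 13.4 and 24.6% in Control against 10.9, 16.9 and 20.2% in KI over 28 positions (log2 difference 1.28, SE 0.43, limma adjusted p 0.608). Another window with this order lay at the lncRNA Gm29905 beside Hoxc6, chr15:102998001-102999000, with 0, 4.14 and 9.52% in Control against 4.80, 10.6 and 12.1% in KI over 6 positions (log2 difference 2.47, SE 0.60, limma adjusted p 0.470). In these 3 windows ST-HSC stood between LT-HSC and MPP in both genotypes.

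**Figure D5:**
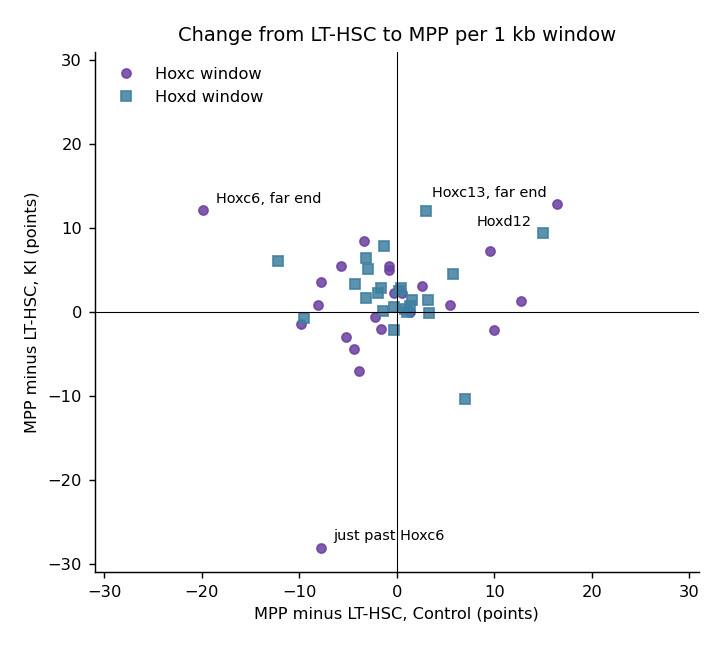
MPP minus LT-HSC in percentage points for each 1 kb window of the clusters, in Control (horizontal axis) against KI (vertical axis), with Hoxc and Hoxd as different markers. Hoxc13 (16.5 and 12.9 points) and Hoxd12 (14.99 and 9.37) lie in the upper right, and the far end of Hoxc6 stands apart at -19.8 in Control and 12.2 in KI.

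The remaining windows named for a higher level in MPP were less even. In Hoxd3, chr2:74736001-74737000, MPP was above LT-HSC by 3.03 points in Control and 12.01 in KI over 11 positions. With pooled reads Control was lower in MPP there, 5.96% against 10.3% in LT-HSC. Between Hoxc11 and Hoxc10, chr15:102963001-102964000, the difference was 12.8 points in Control and 1.29 in KI over 13 positions. Among windows lower in MPP in both genotypes, the widest difference was just past Hoxc6 (-7.78 and -28.1 points), whose KI LT-HSC value rests on the 73 reads given above. In chr15:103015001-103016000, which holds part of Hoxc5 and the miRNA gene Mir615, the difference was -9.81 and -1.46 points over 20 positions. Ahead of Hoxc9, chr15:102976001-102977000 stood at -3.86 and -7.05 points. In the Hoxd3 and Hoxd4 gene models chr2:74727001-74728000 stood at -9.50 and -0.732, and ahead of Hoxc12 chr15:102935001-102936000 stood at -4.42 and -4.36. Several of these pairs are thus far apart between the genotypes.

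Single positions within these windows varied more than the windows did. In the Hoxd12 window base 74675408 on the reverse strand read 4.55, 5.26 and 80.0% in Control against 7.04, 0 and 12.5% in KI. At the far end of Hoxc6, base 103011388 read 59.0, 18.8 and 0% in Control against 18.1, 9.38 and 25.4% in KI on 16 to 72 reads. At these 2 positions the highest value, of a Control library, was not matched in any other. In the Hoxc13 window base 102927204 read 62.07, 39.29 and 3.12% in Control against 37.5, 52.63 and 32.86% in KI, lower in MPP in both. Bases 102927207 and 102927213 were higher in MPP in both, at 0, 31.03 and 69.7% and 0, 0 and 81.25% in Control. Reads at these positions of the Hoxc13 window were 19 to 70. Its 9 positions lie from base 102927204 to 102927304 and are not 9 separate sites.

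By gene, the Hoxc cluster was read from its posterior to its anterior end. Hoxc13 read 7.23, 9.34 and 11.2% in Control against 9.39, 12.5 and 15.9% in KI over the 44 positions of its gene model (chr15:102921131-102928814), higher in KI and higher toward MPP in each pair. Hoxc12 read 6.09, 4.83 and 0% and 11.5, 8.93 and 21.3%, but over 5 positions and 88 to 237 reads, the fewest of any Hox gene. For Hotair, the antisense lncRNA between Hoxc12 and Hoxc11, 14 positions at the end of the model richer in positions read 2.01, 2.29 and 7.47% and 3.94, 1.83 and 4.79%, and its own extent held none. Hoxc11 stayed low at 3.36 to 8.19% over 24 positions and Hoxc10, a hindlimb and lumbar gene, was higher at 10.5 to 17.2% over 22. Hoxc13 and Hoxc12 thus stood higher in KI in every cell type, and Hoxc11 and Hoxc10 did not.

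The middle and anterior genes of the cluster followed. Hoxc9 read 3.28 to 5.72% over 34 positions, the lowest of the Hoxc genes, and was higher in KI in every cell type by 0.269 points or more. With pooled reads LT-HSC turned, with 4.99% in Control and 4.51% in KI. Hoxc8 read 5.89 to 10.6% over 15 positions. Hoxc6 read 21.5, 17.9 and 12.1% in Control against 16.6, 23.3 and 20.1% in KI over 45 positions, lower in KI in LT-HSC and higher in ST-HSC and MPP. Hoxc5 read 9.80 to 14.1% over 46 positions. With pooled reads it stood at 15.7 to 21.4%, and its base 103016036 read 51.5 to 56.9% on 340 to 528 reads. Hoxc4, the most anterior, read 22.9, 15.3 and 17.3% and 19.3, 15.4 and 18.7% over 14 positions. By unweighted means Hoxc6 and Hoxc4 were the most methylated of the Hoxc genes, and neither differed in 1 direction between the genotypes. With pooled reads Hoxc4 was lower in KI in every cell type (23.1, 18.7 and 25.5% against 18.2, 17.7 and 19.3%).

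The Hoxd genes are given in the same order. From the posterior end, Hoxd13, which patterns digits, read 4.09, 1.78 and 1.39% in Control against 2.64, 4.05 and 8.62% in KI over 25 positions (chr2:74668225-74671603). Hoxd12 read 9.63 to 24.6% over 28 positions, all of them in the window described above. Hoxd11 read 9.30, 7.93 and 9.39% and 10.1, 11.8 and 11.1% over 112 positions. Hoxd11 was thus higher in KI in every cell type by unweighted means, but with pooled reads LT-HSC turned, with 9.86% in Control and 8.71% in KI. The Hoxd10 model, which overlaps that of Hoxd11, read 9.51 to 14.8% over 38 positions. Hoxd9 read 3.43, 2.17 and 5.02% and 4.27, 5.75 and 6.06% over 56 positions, and Hoxd8 2.34 to 3.97% over 61, the least methylated Hox gene of the 2 clusters. Hoxd9 was higher in KI in every cell type and Hoxd8 was not, and with pooled reads Hoxd9 turned in LT-HSC as well, with 3.87% in Control and 3.51% in KI.

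Toward the anterior end Hoxd4 read 16.1, 11.9 and 7.28% in Control against 14.5, 13.6 and 14.4% in KI over 26 positions. The long Hoxd3 model, which reaches over Hoxd4, read 9.25, 7.64 and 8.23% and 11.1, 11.1 and 13.3% over 125 positions, with every KI library above every Control library. Hoxd1 read 6.96, 5.62 and 8.57% and 8.86, 11.6 and 10.3% over 42 positions, again without overlap, although with pooled reads the genotypes overlapped. Among the lncRNAs, Haglr, which starts beside Hoxd1, read 8.80, 8.26 and 4.78% and 4.63, 5.38 and 7.58% over 40 positions, and Hoxd3os1 0.794, 0.595 and 1.25% and 2.85, 3.62 and 5.72% over 16, the same positions as the start of Hoxd3. Hoxd3os1 and the start of Hoxd3 kept the genotypes apart, and Haglr was lower in KI in LT-HSC and ST-HSC and higher in MPP.

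Of 18 Hox genes with at least 5 positions in the gene model, 7 were higher in KI in every cell type and 0 lower, where 26.8 and 4.77% of the 14734 gene models of the genome with at least 5 positions were. The mean differences ran from -1.63 (Hoxc8) to 10.3 points (Hoxc12). With pooled reads 6 were higher and 1 lower, and Hoxc13, Hoxc12, Hoxd3 and Hoxd1 were the 4 of the 7 that stayed higher in every cell type. Of 22 gene starts in the stretches, 11 were higher in KI in every cell type, where 22.5% of the 12582 gene starts of the genome were. A start reached from 1000 bases before to 500 bases after the start where the strand was given, which left the Hoxc genes other than Hoxc4 with the gene end richer in positions, and that end need not be the start. Neighbouring starts share positions, so the 11 are not separate cases. The median level of the 22 starts was 6.43%, against 3.10% over all starts, and the part of level in this count was not tested. At least 10 points higher in KI in every cell type were 0 of 22 starts (background 0.326%), and 0 were lower by as much (background 0.0238%). From LT-HSC to MPP 12 of 22 were higher in both genotypes (background 34.9%) and 0 were lower by at least 10 points (background 0.0795%), and MPP was at least 10 points above LT-HSC in both genotypes at 1 start, that of Hoxd12 (background 0.413%), which read 10.3, 12.7 and 25.3% in Control against 9.84, 15.2 and 20.7% in KI. With pooled reads the difference at this start was 13.5 points in Control and 9.96 in KI.

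The clusters hold 3 miRNA genes, small RNAs that pair through the seed, bases 2 to 8, with target transcripts, many of them of Hox genes for miR-10 and miR-196. The mature sequences of the 5′ arms are given with the seed in capitals, as none of the 3 shares it with another.
mmu-miR-10b-5p (chr2:74726074-74726096): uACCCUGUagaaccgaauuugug
mmu-miR-196a-5p (chr15:102973365-102973386): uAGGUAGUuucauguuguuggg
mmu-miR-615-5p (chr15:103014926-103014947): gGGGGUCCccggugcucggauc
Shared positions lay only in Mir615, within Hoxc5, whose 6 positions read 4.17, 0 and 5.17% in Control against 1.67, 1.35 and 3.21% in KI. The 2 positions in the 5′ arm read 12.5, 0 and 15.5% and 3.75, 4.05 and 9.62%, and the 2 in the 3′ arm were at 0 in all 6 libraries. Mir10b and Mir196a-2 held no shared position within their hairpins.

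Of a list of 44 genes that act on or with Hox genes, 39 had a measured start. The list holds the Polycomb complexes PRC2 and PRC1, MLL (Kmt2a) and its partners, the cofactors of the Meis, Pbx and Pknox families, Ctcf and the caudal genes. At these starts 7 of 39 (17.9%) were higher in KI in every cell type and 0 by 10 points, and the median difference was 0.402 points against 0.487 over all starts. Nearly all were close to unmethylated, with a median level of 2.55%. Ezh2, the PRC2 methyltransferase, read 1.92, 2.82 and 1.72% in Control against 5.14, 6.56 and 6.005% in KI over 15 positions, with no overlap. Cdx1, a caudal gene that activates Hox genes in the embryo, stood apart at 26.3, 26.001 and 38.2% in Control against 32.8, 42.3 and 47.8% in KI over 40 positions, and was the 1 member at least 10 points higher in MPP than in LT-HSC in both genotypes.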

How the data were processed

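Methylation was measured in 6 libraries, 1 per genotype and cell type. Per the submitters' processing notes Bismark 0.10.0, SAMtools 1.0, methylKit 0.9.1 and mm10 were used, with the settings, conversion rate and duplicate removal not given in the sources used here. Per the file headers, the authors deposited a read count for each position and, as percent, how many of those reads showed C or T. Multiplying both gave whole methylated reads at 100% of positions (tolerance 0.01 points).

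From these, levels were averaged over positions, unweighted, and over 1 kb windows with at least 5 shared positions, and windows were compared with limma 3.58.1 in R 4.3.3 (log2 ratio, prior count 1, genotype and cell type as terms, variance trend, Benjamini-Hochberg over 25123 windows). The edgeR 4.0.16 quasi-likelihood test was an alternative. Others were a coverage of 20, pooling or thinning of reads, merged strands, at least 10 positions, windows shifted by 500 bases, a prior count of 5, a threshold of 5 points, percent in place of log ratios, no block, and leaving out each library. Pooled reads for genes, promoters, each window and the gaps between clusters, and positions with a mean under 20% for cluster means, were added after seeing the data. The sources used here do not say if 1 pool of mice gave all 3 cell types, so p-values may measure only the spread between these libraries.

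Genes came from RefSeq (GRCm38.p6), whose gene table gives no strand, so strands came from its promoter table where a gene was listed there. The genes named are all those overlapping the stretches with at least 5 positions, and the windows named are up to 5 with the largest rise or fall in 1 direction in all pairs, the 3 highest and the 3 with most positions. Single positions, the printed promoters, Ezh2 and Cdx1 were chosen after their values were seen. Members and lists were chosen with earlier results of these data known.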

Additional observations from a re-analysis of the deposited data

Results flagged for a closer look

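The Hoxc mean moved in opposite directions from LT-HSC to MPP in the 2 genotypes, down by 0.577 points in Control and up by 2.27 points in KI, a gap of 2.85 points. The window at the far end of Hoxc6, chr15:103011001-103012000, did the same more widely, with -19.8 points in Control and 12.2 points in KI, a gap of 32.0 points. It rests on 10 positions and 301 to 708 reads per library, and the Control LT-HSC level of 40.9% and the KI LT-HSC level of 16.9% are its highest and lowest values. Each gap is between single libraries, and the difference between the genotypes was not tested.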

How the results depend on the processing

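Across the alternatives that kept all 6 libraries, 0 of the clusters' windows were called in either comparison. With all 6 libraries kept, the lowest adjusted p of limma among them was 0.429 (KI against Control, at least 10 positions). Leaving out a library leaves its cell type with 1, so p-values and calls of those fits are not given. Some alternatives did call windows elsewhere in the genome. At a prior count of 5, 24 of 25123 windows were called higher and 1 lower in MPP, and 2 higher and 2 lower in KI. The fits pair the libraries through a block (cell type for the genotypes, genotype for the cell types). With no replicate block 0 of the clusters' windows were called in either comparison. Over the genome that fit called 2 of 25123 windows, both lower in KI, and 0 between MPP and LT-HSC. The Hoxc to Hoxd gap of 1.87 points ran from 1.77 to 2.04 without single libraries, where 5 libraries cannot pass 0.05 (exact sign-flip permutation p = 0.0625), and was 1.28 at a coverage of 20, 2.66 with pooled reads, 0.9003 over windows and 0.241 over positions with a mean under 20% (exact sign-flip permutation p = 0.0625, chosen after seeing the data). The Hoxc difference between KI and Control was 0.890 points with pooled reads and ran from 1.27 to 2.69 without single libraries, and the Hoxd difference from 1.38 to 2.34. The Hoxc difference between MPP and LT-HSC, 0.846 points over both genotypes, was -0.0116 over windows, and without single libraries it ran from -0.577 (without KI LT-HSC or KI MPP) to 2.27. Windows at least 10 points higher in KI in every cell type ran from 0 to 1 without single libraries (1 without Control or KI LT-HSC). Windows at least 10 points higher in MPP in both genotypes (1) were 2 after thinning to 10 reads, 0 with at least 10 positions, 2 after the shift, 3 at a threshold of 5 points and up to 4 without single libraries, and those lower (0) were 1, 1 and 1 after thinning, the shift and at 5 points and up to 2 without single libraries. Of 116 values for named windows under alternatives, 96 moved by less than the spread and 11 changed sign. With 1 library per group, a median of 33 reads at many positions and strands that disagreed by 10 points or more at 16.1 to 35.5% of CpGs, differences of a few points at single positions were not detectable.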
